A study of Homo sapiens with 8 samples.

Results

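The nuclear-encoded respiratory chain was described here in WM902B, a human cell line from a primary melanoma that carries an activating BRAF mutation. The members were all rows of the authors' deposited table whose symbol begins with NDUF, SDHA to SDHD, UQCR, COX and a digit, or ATP5, together with CYC1 and CYCS. The rule found 85 of 4616 genes: 34 subunits of complex I, 4 of complex II, 9 of complex III, cytochrome c itself, 11 subunits of complex IV, 17 of complex V, 7 assembly factors and 2 associated proteins. The cells expressed a hairpin against the long non-coding RNA TINCR (shTINCR) or a scrambled hairpin (shSCR) and were otherwise alike: passage 18, the same parental line and 5 min of cycloheximide at 100 µg/ml, which holds ribosomes on the mRNA. Each hairpin had 2 libraries of ribosome-protected fragments and 2 of RNA, 8 in all. Each gene has a translational efficiency (TE, the footprints of ribosomes relative to mRNA) for shTINCR and for shSCR cells on a log2 scale, a log2 change, which is shTINCR minus shSCR, and a p-value. It has no value per library, so no replicate spread or depth can be given, and a change cannot be divided between footprints and mRNA. The labels name 1 hairpin per arm in 1 line. TINCR itself was not analysed here, and its silencing was therefore not checked. Of 10 melanocyte markers 9 were measured, and of 13 markers of keratinocytes, epithelia, leukocytes, endothelium and fibroblasts 0 were.

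The respiratory chain lies in the inner mitochondrial membrane. Complex I takes electrons from NADH and complex II from succinate, complex III passes them from ubiquinol to cytochrome c, and complex IV hands them to oxygen. Complexes I, III and IV pump protons, and complex V, the ATP synthase, uses the gradient to make ATP. A few subunits of complexes I, III, IV and V are made inside the mitochondrion. All others are made on cytosolic ribosomes, imported, and joined with the help of assembly factors that are absent from the finished enzyme. The 13 mRNAs of the mitochondrial genome were not analysed here.

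TE of 7 members rose and that of 2 fell in shTINCR cells at a deposited adjusted p below 0.05, while 76 did not pass. The 7 were NDUFS6, NDUFA1, NDUFB7 and NDUFA5 of complex I, CYC1 and UQCR11 of complex III, and the assembly factor NDUFAF3. The 2 were COX7B of complex IV and ATP5MD of complex V. In the authors' deposited table as a whole, 8.23% of genes rose and 8.17% fell, 16.4% together, against 10.6% of the members, so the respiratory chain did not hold more changed genes than the table as a whole. The median log2 change was 0.0088 over the 85 members and 0.016 over all genes. Of the members 51.8% had a change above 0, and of all genes 52.5%. The changes of members ran from -0.44 to 0.52 with an SD across genes of 0.199, against 0.249 across all genes. Before adjustment, 15 members with a p below 0.05 in the authors' test lay above 0 and 9 below, against 29.5% of all genes in either direction.

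**Figure D1:**
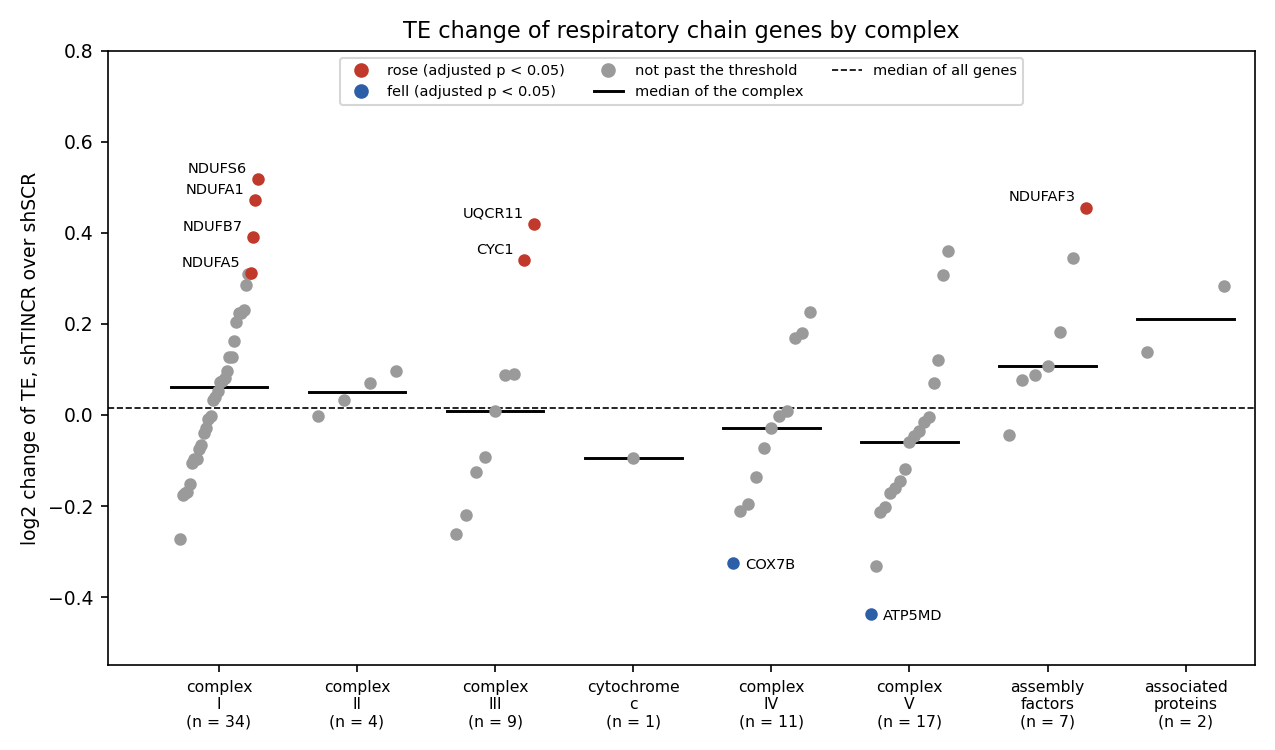
Deposited log2 change of TE, shTINCR over shSCR, for each of the 85 members, 1 point per gene, by complex; black bars are medians of each complex and the dashed line is the median of all 4616 genes (0.016). The red points (7 genes) lie in complexes I and III and among the assembly factors, and the blue points (2 genes) in complexes IV and V.

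Members had high TE in both conditions. In shTINCR cells 76 of 85 lay above the median of all genes and in shSCR cells 74 of 85 did. Their median log2 TE was 0.78 in shTINCR and 0.76 in shSCR cells, against 0.0019 and 0.0078 for all genes. The median member stood at the 84.0th percentile of TE in shSCR cells. Complex IV subunits had a median log2 TE of 0.98 in shTINCR and 0.88 in shSCR cells, complex I subunits 0.85 and 0.84, complex II subunits 0.77 and 0.76, complex V subunits 0.73 and 0.76, and complex III subunits 0.53 and 0.50. The assembly factors stood lower, at 0.44 in shTINCR and 0.35 in shSCR cells, and cytochrome c (CYCS) below the typical gene, at -0.35 and -0.26 in the authors' deposited table. A TE compares 2 assays over a region that the sources used here do not give. If RNA was counted over whole mRNAs and footprints fall on the coding part, long untranslated ends lower a TE, so the order of genes by TE was not tested.

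**Figure D2:**
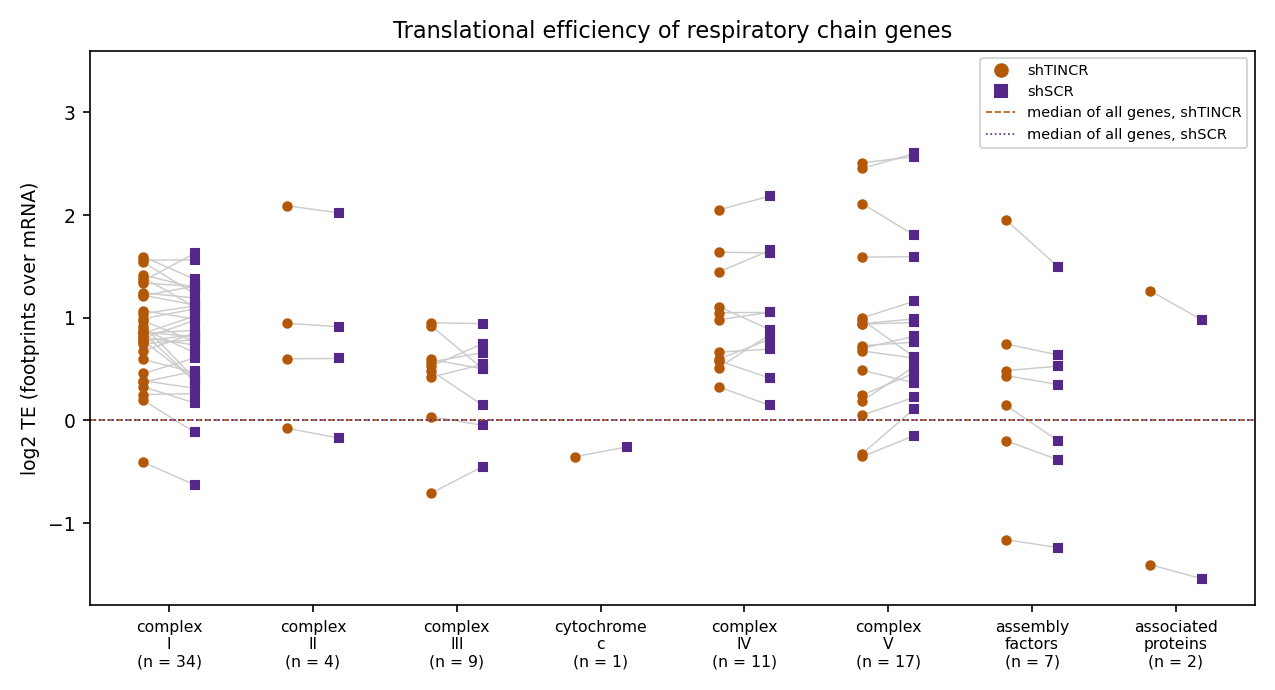
Log2 TE of each member in shTINCR cells (circles, left) and shSCR cells (squares, right), joined per gene, by complex; the broken lines are the medians of all genes in each condition. Of the 85 members 76 in shTINCR and 74 in shSCR cells lie above their line, and TE differs between subunits of 1 complex by more than it does between the hairpins.

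Subunits of 1 complex are needed in fixed proportions, which need not be equal. Within each complex the highest TE was between 2.62 and 7.26 times the lowest. Whether TE follows the proportions was not tested. In complex V the highest TE was 7.26 times the lowest in shTINCR cells, where ATP5F1E led, and 6.72 times in shSCR cells, where ATP5PF led. ATP5PB was lowest in both. In complex II, SDHC stood 4.49 times above SDHD in shTINCR cells and 4.57 times in shSCR cells, although these 2 genes encode the paired membrane anchors. In complex IV the span was 3.30-fold in shTINCR and 4.11-fold in shSCR cells, with COX5A at the top and COX8A at the bottom in both. In complex I it was 4.004-fold in shTINCR and 4.79-fold in shSCR cells, and in complex III 3.16-fold and 2.62-fold. Across the 85 members log2 TE in the 2 conditions correlated with r = 0.960 and rho = 0.932, a description over genes that share the same libraries. The rate of synthesis also depends on the mRNA level, for which the table has no column.

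Complex I held 4 of the 7 rises. NDUFS6, an accessory subunit of the NADH-oxidising tip, had a log2 TE of 0.92 in shTINCR and 0.41 in shSCR cells, which is 1.43-fold (log2 change 0.52, adjusted p = 0.000906 per the authors' deposited table). This was the highest change of any member, and it moved NDUFS6 to the 86.8th percentile of TE in shTINCR cells, against the 69.5th in shSCR cells. NDUFA1, a small membrane-arm subunit needed for assembly, had a log2 TE of 0.85 in shTINCR and 0.38 in shSCR cells (1.39-fold, adjusted p = 0.0019 per the authors' deposited table). NDUFB7, also of the membrane arm, had 0.78 in shTINCR and 0.39 in shSCR cells (1.31-fold, adjusted p = 0.0107 per the authors' deposited table). NDUFA5, an accessory subunit of the ubiquinone-binding part, had 0.20 in shTINCR and -0.12 in shSCR cells (1.24-fold, adjusted p = 0.0402 per the authors' deposited table). All 4 are accessory subunits, as are 27 of the 34 genes of the complex. They were divided evenly between the arms, with 2 of 16 in the peripheral arm and 2 of 17 in the membrane arm. As a share, 4 of 34 (11.8%) is close to the 8.23% of all genes that rose. Falls numbered 0, against 8.17% of all genes. At an unadjusted p below 0.05 in the authors' test 7 of 34 lay above 0 and 0 below. By that measure 729 of all 4616 genes lay above 0 and 634 below, and a difference from these shares was not tested.

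The catalytic core of complex I, 7 nuclear genes that carry the flavin, the iron-sulfur clusters and the ubiquinone site, held 0 genes past the threshold in the authors' test, with 1 at an unadjusted p below 0.05. That gene was NDUFS7, which carries the last iron-sulfur cluster before ubiquinone, at a log2 TE of 1.54 in shTINCR and 1.23 in shSCR cells (change 0.31, adjusted p = 0.101 per the authors' deposited table). NDUFS8, NDUFS3 and NDUFV1, which binds the flavin, had changes of 0.097, 0.08 and 0.07 by the authors' deposited table. NDUFS1 and NDUFV2 had -0.11 and -0.17 there. The core thus lay on both sides of 0, with a median of 0.07, against 0.05 for the 27 accessory subunits. The lowest change in complex I was that of NDUFA12, an accessory subunit that joins late, at -0.27 (log2 TE 1.36 in shTINCR and 1.63 in shSCR cells, adjusted p = 0.196 per the authors' deposited table). NDUFA11 had the lowest TE of the complex, at -0.41 in shTINCR and -0.63 in shSCR cells in the authors' deposited table. NDUFB8, a membrane-arm subunit, stood just outside the threshold at 0.29 (adjusted p = 0.0804 per the authors' deposited table). NDUFB2 had the highest TE of the complex in shTINCR cells, at 1.60, against 1.37 in shSCR cells (change 0.22, adjusted p = 0.13 per the authors' deposited table). NDUFAB1, the acyl carrier protein that is present in both arms, had a change of -0.04 there. Over the complex, 20 of 34 changes were above 0 (58.8%, against 52.5% of all genes), with a median of 0.06.

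**Figure D3:**
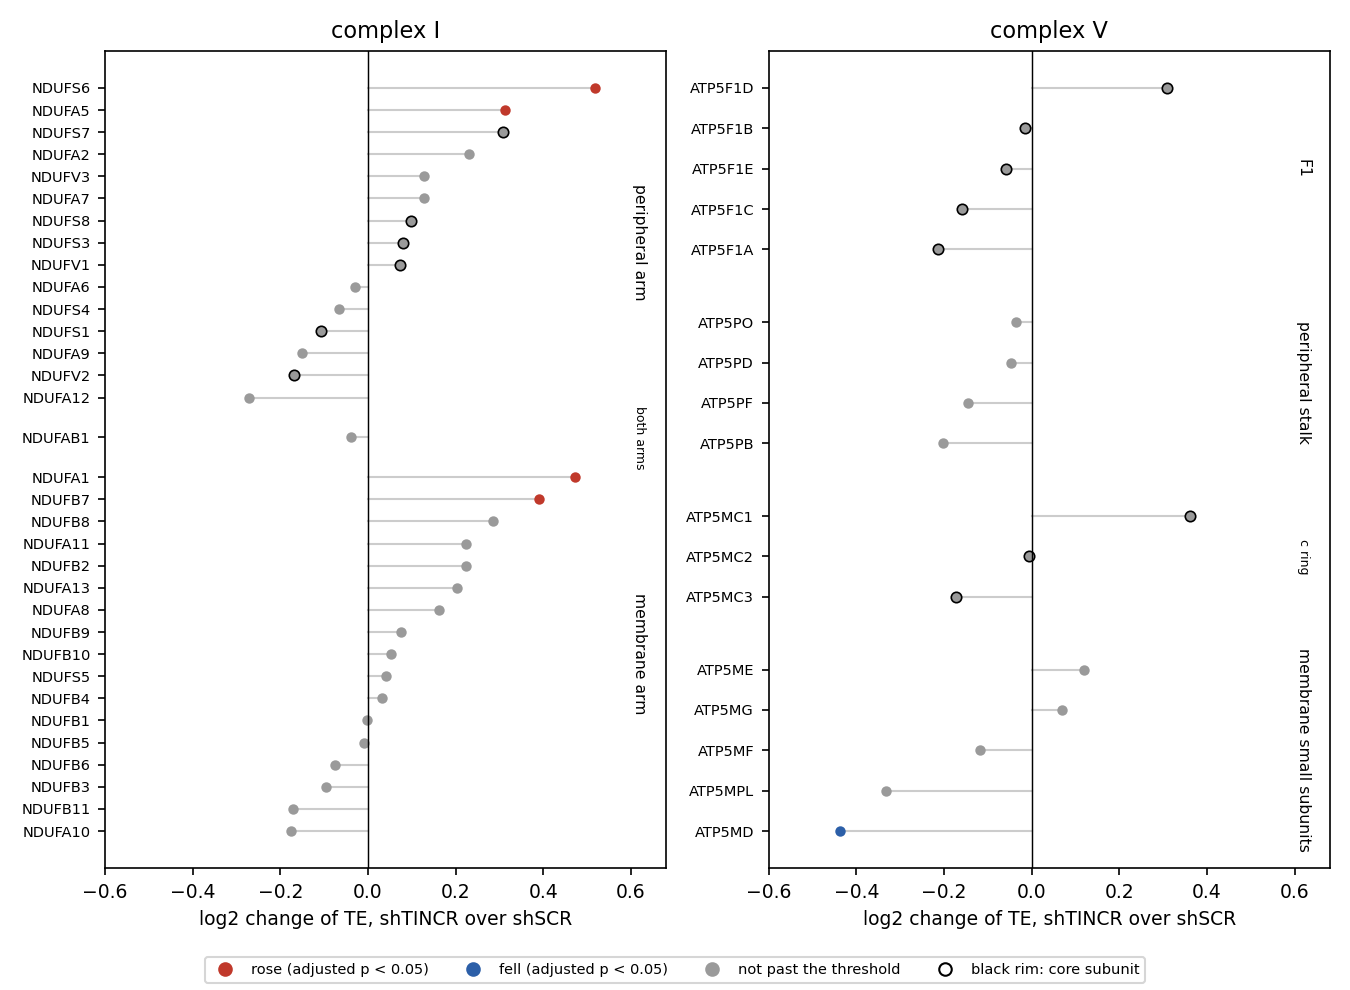
Deposited log2 change of TE, shTINCR over shSCR, for subunits of complex I (left panel) and complex V (right panel, 17 genes), grouped by sub-assembly; points with a black rim are core subunits. In complex I the red points are accessory subunits of both arms, and 27 of its 34 genes are accessory. In complex V 13 of 17 points lie below 0, while 52.5% of all genes lie above 0.

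Start sites of the mRNAs were compared next, since the first bases of an mRNA can set how it is translated. Of the 85 members 72 had a promoter window in the RefSeq tables (GRCh38.p14), which run from 250 bases before to 50 bases after an annotated start. The first motif searched was ATGGCGGC, the core of the TISU element, which surrounds the start codon of mRNAs with very short leaders and is known from housekeeping and mitochondrial genes. The same letters are also part of the binding site of the factor YY1. In the first 50 transcribed bases it was present in 10 of 72 members (13.9%), against 6.14% of the 3858 genes of the table with a window and 1.34% of all 35116 windows. On the opposite strand (GCCGCCAT) it was present in 1 of 72 members (1.39%), in 1.11% of the genes of the table and in 0.296% of all windows. A gene was counted if any of its windows held the motif, and 10 members had several windows. The share of all windows is per window and takes in other genes, so it is not a like comparison. The 4 below are shown because they span NDUFS6, the member with the highest change, and 3 members that did not pass, with the motif in capitals.
NDUFS6: agcggcgcaaaATGGCGGCggcgat
NDUFS3: catctgagtaacATGGCGGCggcggc
NDUFA9: ttgtgggaaaagATGGCGGCtgccgc
SDHB: tcaggagccaagATGGCGGCggtggt

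These runs lie on GRCh38.p14 at chr5:1801407-1801431 (plus strand) for NDUFS6, chr11:47579080-47579105 (plus) for NDUFS3, chr12:4649115-4649140 (plus) for NDUFA9 and chr1:17054006-17054031 (minus) for SDHB. The motif begins at base 12 of the annotated transcript in NDUFS6, 19 in NDUFS3 and 14 in both NDUFA9 and SDHB. NDUFS6 was the only 1 of the 10 that passed the threshold. NDUFA9, which lies where the arms of complex I meet, had a change of -0.15 and SDHB one of 0.03 in the authors' deposited table. The other 6 were NDUFS4, NDUFA13, NDUFB11, UQCRC1, UQCR10 and NDUFAF8. The median change was 0.08 among the 10 members with the motif and 0.0031 among the 62 without. Over the table it was 0.05 with the motif and 0.012 without. The annotated starts were not measured in these cells.

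The second feature was a start with C followed by at least 4 pyrimidines, as in TOP mRNAs, whose translation follows mTORC1 signalling and which include the ribosomal proteins. It was searched on the transcribed strand only, and was chosen with the values known. It was present in 8 of 72 members (11.1%), 8.66% of the genes of the table with a window and 4.07% of all windows, the last again counted per window. Of the 334 genes of the table with such a start, 16 rose and 76 fell, with a median change of -0.09, against 0.03 without it. Of the 8 members 0 passed the threshold in the authors' test, with 1 at an unadjusted p below 0.05, and their median was -0.02, against 0.04 for the members without it. The 4 below are shown for this contrast, with the opening run of pyrimidines in capitals.
COX4I1: CTCTTCCggtcgcgggacaccggg
ATP5MC2: CCCCTCTCTgtcttctctgcagtg
ATP5PO: CTCTTCCCactcgggtttgaccta
UQCRH: CTTCTTgatcctgaactgggttag

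They lie on GRCh38.p14 at chr16:85799695-85799718 (plus strand) for COX4I1, chr12:53676060-53676083 (minus) for ATP5MC2, chr21:33915781-33915804 (minus) for ATP5PO and chr1:46303698-46303721 (plus) for UQCRH. COX4I1, the largest nuclear-encoded subunit of complex IV, had a change of 0.0088, ATP5MC2 one of -0.0052 and ATP5PO one of -0.04 in the authors' deposited table. UQCRH, the hinge subunit of complex III, had -0.26. COX7C, ATP5MG, ATP5F1E and COX7A2L were the other 4, with changes from -0.06 to 0.14 in the authors' deposited table. Whether the difference between these 8 and the other genes with such a start exceeds chance was not tested.

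In complex II, which is made of nuclear-encoded subunits alone and also belongs to the citric acid cycle, 0 of 4 genes passed the threshold or an unadjusted p below 0.05 in the authors' test. The flavoprotein SDHA had a log2 TE of 0.60 in both shTINCR and shSCR cells (change -0.0030, adjusted p = 0.983 per the authors' deposited table). The iron-sulfur protein SDHB had 0.95 in shTINCR and 0.91 in shSCR cells. The anchors SDHC and SDHD had 2.09 and -0.07 in shTINCR cells, against 2.02 and -0.17 in shSCR cells, with changes of 0.07 and 0.097 by the authors' deposited table. The 4 changes spanned the narrowest range of the 5 complexes, with an SD across genes of 0.043. An interval for each change cannot be had from the table, so a small change is not excluded.

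Complex III held 2 genes of 9 that rose and 0 that fell, beside 8.23% and 8.17% of all genes. A difference from these shares was not tested on so few genes. CYC1, cytochrome c1, which passes electrons to cytochrome c, had a log2 TE of 0.49 in shTINCR and 0.15 in shSCR cells (1.27-fold, adjusted p = 0.00211 per the authors' deposited table). UQCR11, a small membrane subunit, had 0.92 in shTINCR and 0.50 in shSCR cells (1.34-fold, adjusted p = 0.00889 per the authors' deposited table). The other catalytic nuclear subunit, the Rieske iron-sulfur protein UQCRFS1, had 0.95 in shTINCR and 0.94 in shSCR cells (change 0.0088, adjusted p = 0.958 per the authors' deposited table). The hinge protein UQCRH lay at -0.71 in shTINCR and -0.45 in shSCR cells, the lowest TE of the complex in both (change -0.26, adjusted p = 0.0902 per the authors' deposited table). UQCRB, a small subunit near the ubiquinone site, had a change of -0.22 (adjusted p = 0.143 per the authors' deposited table). The core proteins UQCRC1 and UQCRC2 had 0.09 and -0.13 there. In the complex as a whole 5 of 9 changes were above 0, with a median of 0.0088. At an unadjusted p below 0.05 in the authors' test 2 lay above 0 and 2 below, beside 729 and 634 of all 4616 genes.

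CYCS, cytochrome c, which carries electrons from complex III to complex IV and also triggers the apoptosome, had a log2 TE of -0.35 in shTINCR and -0.26 in shSCR cells (change -0.09, adjusted p = 0.517 per the authors' deposited table). It has 45 named pseudogenes, the most of any member, with which reads can be shared.

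In complex IV, 1 of 11 nuclear subunits fell (9.09%, close to the 8.17% of all genes) and 0 rose, against 8.23% of all genes. COX7B, a small subunit needed for assembly, had a log2 TE of 0.52 in shTINCR and 0.84 in shSCR cells (0.798-fold, adjusted p = 0.0369 per the authors' deposited table). NDUFA4, named for complex I but a subunit of complex IV, had 0.60 in shTINCR and 0.79 in shSCR cells (change -0.20, adjusted p = 0.145 per the authors' deposited table). COX6B1, which faces cytochrome c, had a change of -0.21 and COX7A2, a dimer-interface subunit, one of 0.23 in the authors' deposited table. COX8A, which had the lowest TE of the complex, had 0.18 and COX5A, which had the highest, had -0.14 there. The remaining 5 (COX4I1, COX5B, COX6A1, COX6C and COX7C) lay between -0.07 and 0.17. The median was -0.03, and 4 of 11 changes were above 0 (36.4%, against 52.5% of all genes). At an unadjusted p below 0.05 in the authors' test 1 of 11 lay above 0 and 3 below (COX7B, NDUFA4 and COX6B1). By that measure 729 of all 4616 genes lay above 0 and 634 below, and a difference from these shares was not tested.

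In complex V, 1 of 17 fell (5.88%, against 8.17% of all genes) and 0 rose. Of the 17 changes 13 lay below 0 (median -0.06). Thus 23.5% lay above 0, against 52.5% of all genes, and whether this exceeds chance was not tested. Before adjustment, 2 of 17 genes above 0 and 4 below had a p below 0.05 in the authors' test. By that measure 29.5% of all 4616 genes passed, 729 above 0 and 634 below, and a difference from these shares was not tested. ATP5MD, also called DAPIT, a small membrane subunit involved in joining ATP synthase dimers, had a log2 TE of -0.32 in shTINCR and 0.11 in shSCR cells (0.739-fold, adjusted p = 0.0278 per the authors' deposited table). This was the lowest change of any member. The companion small subunit ATP5MPL had 0.19 in shTINCR and 0.52 in shSCR cells (change -0.33, adjusted p = 0.0603 per the authors' deposited table). The other 3 small membrane subunits, ATP5ME, ATP5MG and ATP5MF, had changes of 0.12, 0.07 and -0.12 there.

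In the catalytic F1 head 0 of 5 genes passed the threshold. At an unadjusted p below 0.05 in the authors' test 1 lay above 0 and 1 below. Differences between its subunits were not tested. The alpha subunit ATP5F1A had a log2 TE of 0.25 in shTINCR and 0.46 in shSCR cells (change -0.21, adjusted p = 0.0613 per the authors' deposited table). Its catalytic partner, the beta subunit ATP5F1B, had 0.94 in shTINCR and 0.95 in shSCR cells (change -0.02, adjusted p = 0.91 per the authors' deposited table). Of the central stalk, the gamma subunit ATP5F1C had -0.16, the delta subunit ATP5F1D 0.31 (adjusted p = 0.138) and the epsilon subunit ATP5F1E -0.06 in the authors' deposited table. The 4 peripheral stalk subunits, which hold the head still against the rotor, all had changes below 0, from -0.20 for ATP5PB to -0.04 for ATP5PO, and 0 passed in the authors' test, with 1 at an unadjusted p below 0.05.

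The c subunits of the rotor ring are encoded by 3 genes whose mature proteins are identical and which differ in their import presequences. ATP5MC1 had a log2 TE of 0.98 in shTINCR and 0.62 in shSCR cells (change 0.36, adjusted p = 0.0574 per the authors' deposited table). ATP5MC2 had 1.59 in both (change -0.0052) and ATP5MC3 0.05 in shTINCR and 0.23 in shSCR cells (change -0.17, adjusted p = 0.194 per the authors' deposited table). The order of the 3 was therefore ATP5MC2, ATP5MC1, ATP5MC3 in both conditions. Differences between these genes were not tested, and 8 and 5 named pseudogenes exist for ATP5MC1 and ATP5MC2.

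Of the 7 assembly factors, 1 rose and 0 fell, beside 8.23% and 8.17% of all genes. At an unadjusted p below 0.05 in the authors' test 2 of 7 lay above 0 and 0 below, beside 729 and 634 of all 4616 genes. A difference from these shares was not tested on so few genes. Of their changes 6 of 7 were above 0 (85.7%, median 0.11), against 52.5% of all genes. NDUFAF3, which acts early on the ubiquinone-binding part of complex I, had a log2 TE of 1.95 in shTINCR and 1.496 in shSCR cells (1.37-fold, adjusted p = 0.0434 per the authors' deposited table). NDUFAF4, its partner in that step, had a change of 0.11 (adjusted p = 0.684 per the authors' deposited table). NDUFAF8 had 0.15 in shTINCR and -0.20 in shSCR cells (change 0.34, adjusted p = 0.147 per the authors' deposited table). NDUFAF2, which acts late, had -0.04, and SDHAF2, which helps SDHA take up its flavin, had 0.09. Of the complex IV factors, COX11, which delivers copper, had 0.18 and COX15, which makes heme A, had 0.08, with the lowest TE of the 7 at -1.16 in shTINCR and -1.24 in shSCR cells in the authors' deposited table.

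The associated proteins also did not pass, with 1 of 2 at an unadjusted p below 0.05. ATP5IF1, which blocks ATP hydrolysis by complex V, had a log2 TE of 1.26 in shTINCR and 0.98 in shSCR cells (change 0.28, adjusted p = 0.161 per the authors' deposited table). COX7A2L, which joins complexes III and IV into supercomplexes, had the lowest TE of all members, at -1.40 in shTINCR and -1.54 in shSCR cells in the authors' deposited table.

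**Figure D4:**
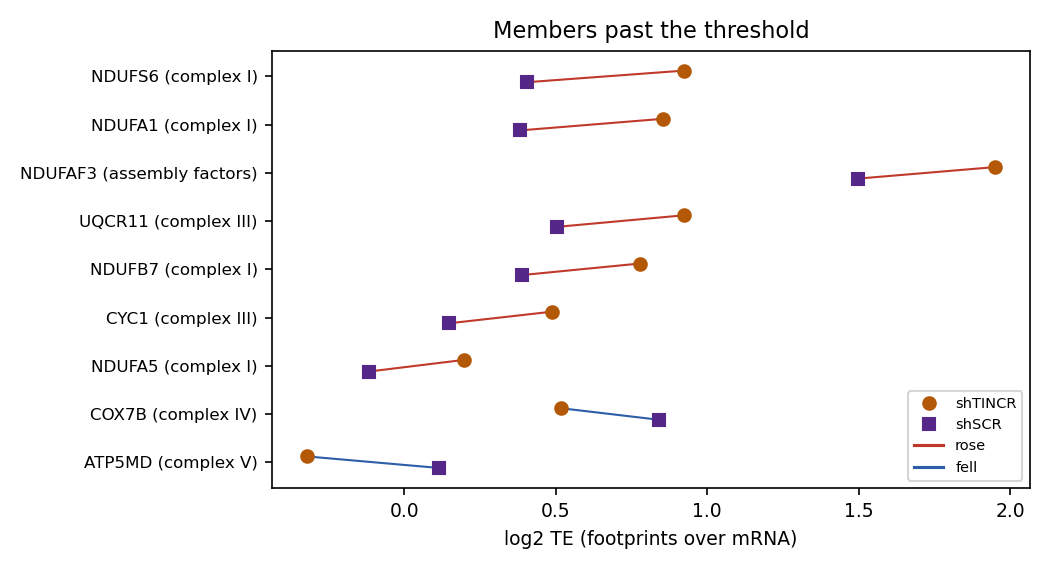
Log2 TE in shTINCR cells (circles) and shSCR cells (squares) of the 9 members past the threshold, ordered by log2 change from NDUFS6 (0.52) at the top to ATP5MD (-0.44) at the bottom. Red lines join values of genes that rose and blue lines those of genes that fell.

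Reads can be shared with pseudogenes, and 53 of the 85 members have at least 1 named pseudogene. The 32 members with none had a median change of 0.12, and 5 of them rose and 0 fell. Complexes differed in this trait. Genes with none were 17 of 34 in complex I, 0 of 4 in complex II and 4 of 9 in complex III. They were 1 of 11 in complex IV, 4 of 17 in complex V and 4 of 7 assembly factors. The 53 members with a named pseudogene had a median of -0.02, and 2 of them rose and 2 fell. The 4 called members with one were NDUFS6 (1), NDUFA5 (12), COX7B (4) and ATP5MD (1), with the number of pseudogenes in brackets. Among the other genes of the table the medians ran the same way, at -0.05 for 1116 genes with a named pseudogene and 0.04 for 3415 without. Of those genes 6.0% with one and 8.96% without rose, and 16.0% with one and 5.74% without fell. The part of pseudogene reads in these values was not tested, nor was that of other traits of genes with a named pseudogene. Whether the medians of the complexes differ apart from this trait was not tested either. A gene of a small nucleolar RNA lies inside 4 members (UQCRC1, COX7C, ATP5F1B and NDUFB5), with changes from -0.03 to 0.09 in the authors' deposited table.

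The authors' table holds a second version of the estimate, in which 20.3% of all genes passed after Benjamini-Hochberg adjustment. There 11 members rose and 4 fell. They include the 9 genes above by construction, since the final p-value is the higher of both versions. The other 6 were ATP5MC1, NDUFB8, NDUFS7 and ATP5F1D above 0, with adjusted p-values of 0.0362, 0.0282, 0.0337 and 0.0327, and ATP5MPL and ATP5F1A below 0, with 0.0347 and 0.02, all from the second version of the authors' deposited table.

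Genes that serve the chain but lie outside the symbol rule were taken from lists. Over all genes 8.23% rose and 8.17% fell. Whether the counts in these short lists differ from those shares was not tested. Of 15 further assembly and mRNA-handling factors, 1 fell and 0 rose, with 1 above 0 at an unadjusted p below 0.05 in the authors' test. The gene that fell was LRPPRC, an RNA-binding protein that stabilises mitochondrial mRNAs, with a log2 TE of 0.0068 in shTINCR and 0.46 in shSCR cells (0.73-fold, adjusted p = 1.74e-05 per the authors' deposited table). SLIRP, its binding partner, had a change of 0.03 there. Of 6 adenine nucleotide and phosphate carriers and outer membrane channels, 1 fell and 0 rose. SLC25A5, an ADP/ATP carrier, had 1.15 in shTINCR and 1.41 in shSCR cells (0.837-fold, adjusted p = 0.0177 per the authors' deposited table). All 6 changes of that list lay below 0, with a median of -0.13, while 52.5% of all genes lay above 0. Of 7 other genes listed for electron supply to ubiquinone or for its synthesis, 1 rose and 1 fell. ETFB, a subunit of the electron transfer flavoprotein, rose (1.26-fold, adjusted p = 0.0134 per the authors' deposited table). GPD2, the mitochondrial glycerol-3-phosphate dehydrogenase, fell (0.69-fold, adjusted p = 0.00884 per the authors' deposited table). Of 12 genes of iron-sulfur cluster and heme supply, 1 rose, the cysteine desulfurase NFS1 (1.36-fold, adjusted p = 0.0396 per the authors' deposited table). Of 5 transcription regulators of respiratory genes, 1 fell, the ETS factor GABPA (0.743-fold, adjusted p = 0.0466 per the authors' deposited table). These 5 lists had medians from -0.13 to 0.10, beside 0.016 over all genes.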

How the data were processed

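Values came from 1 table of the whole series. Per the file headers, the authors deposited log2 TE for both conditions and log2 changes of TE as version 1, version 2 and a final value. Each of these has a deposited p-value, and the final one an adjusted p-value. Per the submitters' processing notes, which give no roles, HTSeq 0.5.3p9, TopHat2 2.0.8 and the build hg19 were among the tools; what computed TE is not given in the sources here. In all 4616 rows the final p-value equalled the higher p-value of both versions, and the deposited adjusted p matched Benjamini-Hochberg within 2e-15. The table held 0 columns of single libraries, so the planned fit over libraries was not run. The labels name the replicates biological.

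Genes were called at a deposited adjusted p below 0.05, and folds are 2 to the power of the log2 change. Members were assigned to complexes by hand, 4 of them (ATP5MD, ATP5MPL, ATP5IF1 and COX7A2L) after their values were seen. The members and lists were chosen with earlier results of these data known. The 46 members that had to be named were those past the threshold, core subunits, CYCS, associated proteins and, per complex, the 3 smallest p and the extremes of change and TE; others are named from their group. Symbols and pseudogene names came from RefSeq (GRCh38.p14): 82 members were current and 3 older symbols. The adjustment was tested on simulated data. Python 3.11.15, pandas 2.3.3, numpy 2.4.6 and matplotlib 3.10.9 were used. 1 complex I gene is counted in all totals but not reported here by name or plotted by name.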

Additional observations from a re-analysis of the deposited data

How the results depend on the processing

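No paired analysis was possible because the table holds no values per library; for the same reason no replicate could be left out, and the alternatives with a replicate block were not run. Counts and medians under the first version of the estimate stayed within 0.00794 of those reported. Under the second version 11 members rose and 4 fell (complex V: 2 and 3). At an adjusted p below 0.01, 4 rose (2 in complex I, 0 assembly factors) and 0 fell, in complexes IV and V too; at 0.1, 9 rose (5 in complex I, 2 in complex III, 1 in complex V and 1 assembly factor) and 5 fell (1 in complex III, 1 in complex IV and 3 in complex V). The shares of all genes at 0.01 and 0.1 are not given here, so those counts cannot be set against all genes. Among the 32 members without a named pseudogene 5 rose and 0 fell, with a median of 0.124. The 17 left in complex I had 2 rises and a median of 0.0975, and the medians were 0.215 over 4 in complex III, -0.026 over 4 in complex V (0 fell) and 0.217 over 4 assembly factors. Complex IV kept 1 gene, COX8A, at 0.181 (0 fell), which says nothing of the complex, and complex II and cytochrome c kept 0. With NDUFA4 in complex I the medians were 0.0519 in complex I and -0.0161 in complex IV. Without ATP5MD and ATP5MPL, an alternative chosen after seeing the data, 1 member fell (0 in complex V), with medians of 0.0326 over members and -0.0465 in complex V. Centred on the all-gene median, the medians were -0.0072 over members, 0.0462, 0.035, -0.0072, -0.0451 and -0.0749 in complexes I to V, -0.11 for cytochrome c, 0.0916 for assembly factors and 0.194 for associated proteins. A median was counted as moved when it differed by more than 0.00794, the largest difference between the authors' versions. Depth is unknown and limits every single value.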
